A study of Canis lupus familiaris with 40 samples.

Results

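The genes described here are 200 of the 24580 genes in the count table of dog blood cells, and they were chosen by measured values. They were selected on high expression in monocytes of healthy dogs, at least 20-fold lower expression in neutrophils of healthy dogs and a low level in PMN-MDSCs. RNA was sequenced from flow-sorted blood cells of dogs in 40 libraries of 6 populations. Healthy dogs gave 3 H MONO (monocyte) and 5 H PMN (neutrophil) libraries. Tumor-bearing dogs gave 8 C MONO, 10 C PMN, 5 M-MDSC (monocytic myeloid-derived suppressor cell) and 9 PMN-MDSC (polymorphonuclear suppressor cell) libraries.

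Monocytes and both MDSC subsets were sorted from the mononuclear layer of the density gradient, and PMNs from the denser pellet below it. All 6 populations were gated as negative for CD5 and CD21 and positive for CD11b. Monocytes were positive for MHC II and CD14. M-MDSCs were positive for CD14 and negative for MHC II and CADO48A, a canine neutrophil antigen. PMN-MDSCs were negative for MHC II and CD14 and positive for CADO48A, and PMNs were negative for MHC II and positive for CADO48A. The gate of M-MDSCs therefore differed from that of C MONOs in MHC II and in the exclusion of CADO48A-positive cells. That of PMN-MDSCs differed from that of PMNs in density and in the exclusion of CD14-positive cells. The labels give no dog, age, breed or tumor for a library, and the series' description counts fewer dogs than libraries for PMN-MDSCs and C PMNs. Libraries were treated as independent, so p-values measure the spread between these libraries.

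Monocytes and neutrophils arise from shared myeloid progenitors and part during maturation in the bone marrow. Blood monocytes sense microbes, take up particles, present antigen through MHC class II and can become macrophages or dendritic cells in tissue, while neutrophils are short-lived cells that carry preformed granules. MDSCs are myeloid cells that expand in cancer and restrain T cells, and their monocytic and polymorphonuclear subsets resemble monocytes and neutrophils in surface markers. In the study of these dogs, suppression of T cells was assayed for PMN-MDSCs but not for M-MDSCs, which its authors call putative.

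Expression is given as CPM, the counts of a gene scaled to the total of its library. CPM also grows with the length of a gene, and TPM takes that length out. Of the genes under 20000 CPM in every library, 5287 had a mean of at least 20 CPM in H MONOs. Among them 580 were at least 20-fold higher in H MONOs than in H PMNs by their means. In 328 of the 580 the median of PMN-MDSCs was under 5% of the H MONO mean, and the 200 with the highest H MONO mean were kept. The remaining 252 of the 580 are called the genes above the PMN-MDSC limit below. At rank 200 the H MONO mean was 49.7 CPM, and in the next gene, just outside, it was 48.5 CPM. The smallest ratio of H MONOs to H PMNs was 20.9 inside the list, and 18.7 was the largest among the 27 genes with at least 49.7 CPM in H MONOs that were left out by that ratio alone. The highest PMN-MDSC median inside was 4.92% of the H MONO mean, and the lowest among the 133 genes with at least 49.7 CPM in H MONOs that were left out by that limit alone was 5.02%. The IDs could not be paired with gene names, so the roles of the 200 genes, the genes of the sort gate and the markers of other cell types were not analysed here. Ranks below are by the H MONO mean.

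Depth ranged from 4229857 to 60473238 counts on genes per library. C PMN 7 held 4229857 counts and PMN-MDSC 9 held 6299310, and the next lowest was C MONO 6 with 19130545. At least 10 counts were reached by 3470 genes in C PMN 7 and 3959 in PMN-MDSC 9. The library titles carry either GAR4079 or PAT4694, which is called the library series here; what the code stands for is not given in the labels. Series PAT4694 held no library of healthy dogs.

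In H MONOs, which chose the genes, the 200 genes together made up 7.54%, 7.65% and 7.62% of the counts. Single genes had H MONO means between 49.7 and 8452 CPM, with a median of 134 CPM. The gene of rank 1 held 11.1% of this sum and the first 10 held 37.9%, while ranks 101 to 200 held 10.9%. The sum was thus uneven, with most of it outside the first 10 genes. Per unit of gene length the H MONO means ranged from 11.2 to 12954 TPM, with a median of 85.6 TPM. The relative gene length, read from the ratio of CPM to TPM, had a median of 0.992 among the 200 genes when the median of the 5287 genes was set to 1. It was 0.721 among the 252 genes above the PMN-MDSC limit.

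The first question was whether the level seen in H MONOs was held in monocytes of tumor-bearing dogs. In C MONOs the summed level was 74536 ± 7659.8 CPM (SD, n = 8), with a lowest library of 62282, a median of 77092 and a highest of 82842 CPM. This was 98.0% of the H MONO mean, and the H MONO libraries, at 75382, 76249 and 76457 CPM, lay inside the C MONO range. Of the 200 genes, 185 had a C MONO mean between 0.5 and 2 times the H MONO mean, 13 were below this range and 2 above it. The median ratio was 0.900. The genes with the most extreme ratios varied widely between libraries. At rank 184 the C MONO libraries ranged from 91.7 to 773 CPM with a median of 188 CPM, against 7.32, 15.6 and 150.02 CPM in H MONOs, a ratio of means of 5.71. At rank 73 they ranged from 5.32 to 128 CPM with a median of 14.6 CPM, against 198, 296 and 83.9 CPM, a ratio of 0.142. Both were singled out after their values had been seen, and since the rule used H MONOs no test was made.

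**Figure D1:**
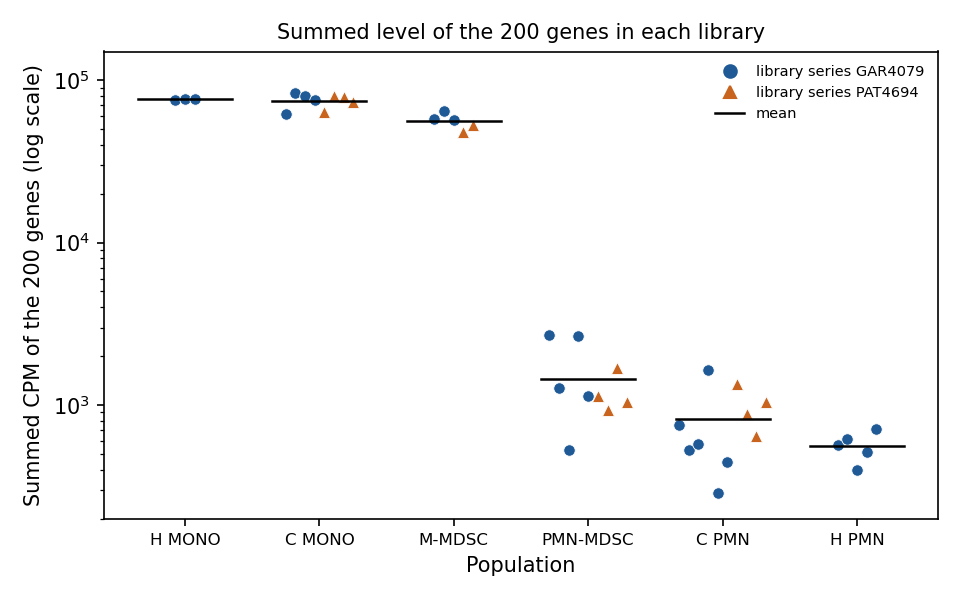
Summed CPM of the 200 genes (log scale) in each library of the 6 populations, with circles for library series GAR4079, triangles for series PAT4694 and bars for the mean. The monocyte and M-MDSC libraries lie between 48079 and 82842 CPM and the PMN-MDSC and PMN libraries between 289 and 2714 CPM.

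In M-MDSCs the 200 genes stayed at monocyte-like levels that were lower on average than in C MONOs. The 5 M-MDSC libraries had summed levels of 57349, 64561, 57026, 48079 and 52764 CPM, a mean of 55956 ± 6110.6 CPM (SD, n = 5). The mean was 75.1% of that of C MONOs, and only M-MDSC 2 overlapped with the C MONO range, lying above C MONO 1 (62282 CPM) and C MONO 5 (63927 CPM). Within series GAR4079 the ratio of the sums was 0.794, and within series PAT4694 it was 0.682. Without the gene of rank 1 the ratio was 0.784. In sorted bulk RNA, fewer cells of a type and less RNA per cell cannot be told apart.

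Abundant genes took a large part in the lower sum, since ranks 1 to 10 held 38.8% of the summed level in C MONOs and 33.3% in M-MDSCs. Counted by genes, the M-MDSC mean was under the C MONO mean in 159 of the 200 genes (79.5%), against 55.2% of the 5287 genes with at least 20 CPM in H MONOs. The ratio was under 0.5 in 29 genes and between 0.5 and 0.8 in 93. Its median was 0.739, with a range of 0.0422 to 1.64. By rank, the median ratio was 0.755 in ranks 1 to 50, 0.744 in ranks 51 to 100, 0.737 in ranks 101 to 150 and 0.722 in ranks 151 to 200. The M-MDSC mean was the lower one in 37, 39, 37 and 46 genes of these blocks of 50. The series use separate libraries, and the M-MDSC mean was the lower one in 158 genes within series GAR4079 and in 161 within series PAT4694. In 142 genes (71.0%) it was the lower one in both series, against 39.7% of the 5287 genes. M-MDSC 1 to 5 were under the C MONO mean in 140, 131, 164, 166 and 158 of the 200 genes (70%, 65.5%, 82%, 83% and 79%). Of the 5287 genes, 49.5%, 47.9%, 68.8%, 58.5% and 57.1% were under it in the same libraries.

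In the edgeR quasi-likelihood test of M-MDSCs (n = 5) against C MONOs (n = 8), all 200 genes passed the filter on low counts and 5 fell in M-MDSCs at an FDR of at most 0.05. Of all 11874 genes tested, 0.253% were called lower. No gene of the list was called higher, against 0.505% of all genes tested. At an unadjusted p under 0.05 in edgeR, 5 of the 200 were higher, against 871 of the 11874. DESeq2 called 1 gene of the list higher and limma voom called 0. At an unadjusted p under 0.05, 58 of the 200 were lower, against 755 of the 11874. The median log2 fold change was -0.38 over the 200 genes, with quartiles of -0.69 and -0.05, and -0.00306 over all genes tested, with quartiles of -0.31 and 0.31. Among the 252 genes above the PMN-MDSC limit the median was -0.34, with 2 called lower and 1 higher. Whether these lists differ was not tested. M-MDSCs and C MONOs were gated apart on MHC II. Without gene names it was not known which genes of the list, called or not, encode MHC II.

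The number of calls was small and moved with single libraries. It was 19 without M-MDSC 2 and 8 without C MONO 1 (7 lower and 1 higher). It was 3 without C MONO 2, C MONO 6 or C MONO 8, and 1 without M-MDSC 3, M-MDSC 4 or M-MDSC 5. Calls over the whole table moved as well, with 79 lower and 105 higher of 12001 genes without M-MDSC 2. They were 32 lower and 55 higher of 11679 without C MONO 1. Without each of the other libraries just named, 5 to 19 were lower and 16 to 40 higher. DESeq2's Wald test called 26 lower and 1 higher, and limma voom called 13 lower. These tools also called more genes over the whole table, with 230 lower and 278 higher of 11802 in DESeq2 and 35 lower and 84 higher of 11874 in limma voom, against 30 and 60 in edgeR. Within series PAT4694, with 2 M-MDSC libraries, 2 genes of the list were called lower, against 5 lower and 4 higher of all 11996 tested. At an unadjusted p under 0.05, 62 of the list were lower and 8 higher, against 1088 lower and 855 higher of all genes tested. Within series GAR4079 edgeR called 0, with 34 lower and 0 higher at an unadjusted p under 0.05, against 352 lower and 417 higher of all genes tested. Over the whole table edgeR also called 0 genes within series GAR4079, and DESeq2 and limma voom were not run on single series. No gene of the list differed between the series in its change from C MONOs to M-MDSCs at an FDR of 0.05 in edgeR. By unadjusted p under 0.05 there were 14 such genes (7%), against 7.64% of all genes tested, and no other tool was run for this difference.

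ENSCAFG00000000814, of rank 6, shared the smallest adjusted p with the gene of rank 129 described below, and had the smaller unadjusted p. It was at 1018, 1317, 1297, 1023 and 1302 CPM in M-MDSC 1 to 5. In C MONOs the lowest library was at 1304 CPM, the median at 2695 and the highest at 3033 CPM. C MONO 1 was the lowest, and without it the populations would not overlap, since the next C MONO library was at 2297 CPM. The log2 fold change was -1.04 (SE 0.18, adjusted p = 0.0200 from edgeR), and all 5 M-MDSC libraries were under the C MONO mean. Adjusted p-values over the alternatives, DESeq2 and limma voom among them, ran from 2.16e-05 to 0.718, the highest within series GAR4079 in edgeR. The call was also lost at an FDR of 0.01, within series PAT4694 and without M-MDSC 4 or M-MDSC 5 (adjusted p = 0.0682 and 0.0545 from edgeR). The log2 fold change was then -0.81 in series GAR4079, -1.26 in series PAT4694 and -1.01 and -1.06 without these libraries. Across the other populations the gene was at 1936 ± 582 CPM (SD, n = 3) in H MONOs, 21.0 ± 18.7 CPM (SD, n = 9) in PMN-MDSCs, 12.2 ± 14.9 CPM (SD, n = 10) in C PMNs and 3.02 ± 1.47 CPM (SD, n = 5) in H PMNs. Its levels thus fell in the order C MONO, H MONO, M-MDSC, PMN-MDSC, C PMN and H PMN, and the libraries of C MONOs and H MONOs overlapped, as did those of PMN-MDSCs, C PMNs and H PMNs.

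ENSCAFG00000031339, of rank 129, was the called gene whose libraries did not overlap. It was at 26.2, 17.3, 14.2, 4.77 and 16.7 CPM in M-MDSC 1 to 5. In C MONOs the lowest library was at 27.2 CPM, the median at 65.8 and the highest at 93.3 CPM. Every M-MDSC library was thus under every C MONO library, by a small margin between M-MDSC 1 and C MONO 5. The log2 fold change was -2.02 (SE 0.35, adjusted p = 0.0200 from edgeR). Over the alternatives the adjusted p ran from 1.51e-06 to 0.430, the highest within series GAR4079 in edgeR. The call was also lost at an FDR of 0.01, within series PAT4694 and without M-MDSC 3 or M-MDSC 5 (adjusted p = 0.0515 and 0.0599 from edgeR). The log2 fold change was then -1.85 in series GAR4079, -2.46 in series PAT4694 and -2.03 and -2.04 without these libraries. H MONOs were at 99.1 ± 7.71 CPM (SD, n = 3), and the neutrophil populations were near the floor, at 0.290 ± 0.394 CPM (SD, n = 9) in PMN-MDSCs, 0.381 ± 0.516 CPM (SD, n = 10) in C PMNs and 0.210 ± 0.172 CPM (SD, n = 5) in H PMNs. The libraries of the last 3 populations overlapped, and their differences were not tested.

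The remaining called genes had ranks 5, 186 and 164. At rank 5 the M-MDSC libraries were at 1044, 1272, 955, 444 and 1159 CPM, against 1019 to 4334 CPM in C MONOs (median 3097), with a log2 fold change of -1.61 (SE 0.29, adjusted p = 0.0261 from edgeR). C MONO 1 was again the lowest of its population, and the next library was at 2667 CPM. At rank 186 the M-MDSC libraries were at 33.7, 41.7, 24.9, 20.5 and 34.0 CPM, against 40.9 to 73.9 CPM in C MONOs (median 60.5), with a log2 fold change of -0.88 (SE 0.17, adjusted p = 0.0315 from edgeR). At rank 164 they were at 39.4, 19.1, 10.6, 4.91 and 21.4 CPM, against 36.2 to 127 CPM in C MONOs (median 73.0), with a log2 fold change of -1.95 (SE 0.41, adjusted p = 0.0411 from edgeR). In each of these 3 genes at least 1 M-MDSC library overlapped with C MONOs, and all 5 M-MDSC libraries were under the C MONO mean. Over 23 alternatives each, the log2 fold changes ran from -2.04 to -1.27 at rank 5 and from -0.98 to -0.78 at rank 186. At rank 164 they ran from -2.60 to -1.54. The call at rank 5 was lost in 6 of 23 alternatives, among them both series alone and the omission of M-MDSC 3, M-MDSC 4 or M-MDSC 5. That at rank 186 was lost in 12, among them the omission of M-MDSC 1, 3, 4 or 5 or of C MONO 2, 4, 5, 6 or 8. That at rank 164 was lost in 16, among them library size alone, limma voom and the omission of M-MDSC 2, 3, 4 or 5 or of C MONO 2, 3, 5, 6, 7 or 8.

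Counted by overlap alone, every M-MDSC library was under every C MONO library in 5 of the 200 genes, 1 of them called, against 0.935% of all genes tested. None was over every C MONO library, against 0.699%. The gene of rank 1 was not called. Its M-MDSC libraries were at 4883, 5260, 5091, 2476 and 5183 CPM and its C MONO libraries between 6460 and 13303 CPM (median 8629), so that the populations did not overlap. Its log2 fold change was -0.92 (SE 0.22, adjusted p = 0.0637 from edgeR). The largest and smallest ratios belonged to genes with wide spread. At rank 118 the M-MDSC libraries were between 0 and 7.84 CPM and the C MONO libraries between 2.76 and 262 CPM (log2 fold change -4.39, SE 1.26, adjusted p = 0.125 from edgeR). At rank 102 they were between 50.5 and 369 CPM and between 2.15 and 214 CPM (log2 fold change 0.77, SE 0.67, adjusted p = 0.658 from edgeR). These 3 genes were singled out after their values had been seen.

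**Figure D2:**
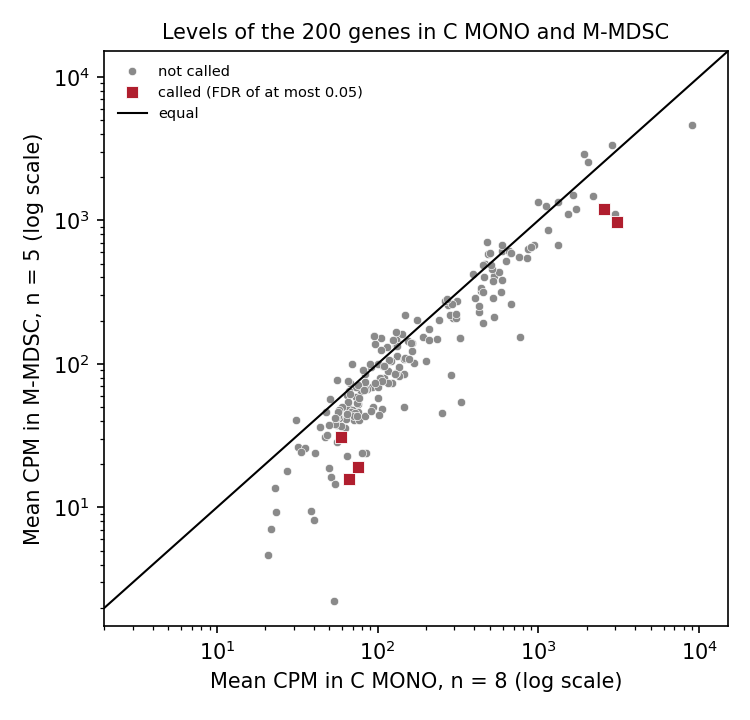
Mean CPM of each of the 200 genes in C MONOs (horizontal, n = 8) and M-MDSCs (vertical, n = 5), both on log scales, with the line of equal levels. Below the line lie 159 genes, and squares mark the 5 genes called lower in M-MDSCs at an FDR of at most 0.05.

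Genes restricted to neutrophils had a higher summed level in M-MDSCs than in C MONOs. The 115 genes with a mean of at least 20 CPM in H PMNs and at least 20-fold less in H MONOs made up 0.373%, 0.420%, 0.489%, 0.521% and 0.460% of the counts in M-MDSC 1 to 5. In C MONOs their share was between 0.0951% and 0.226% (median 0.156%), with no overlap, and in C PMNs it was 0.906% in C PMN 7, the library of lowest depth, and between 3.77% and 5.76% in the others. Their summed level in M-MDSCs was 2.90 times that in C MONOs, and 2.72 and 3.17 times within series GAR4079 and PAT4694. Of the 115, between 77 and 90 reached 1 CPM in an M-MDSC library and between 54 and 81 in a C MONO library. The gene with the highest H PMN level among them was between 20.2 and 159 CPM in M-MDSCs and between 1.98 and 39.8 CPM in C MONOs. Of 108 that were tested in edgeR, 15 were called higher in M-MDSCs, against 0.505% of all genes tested. The part of this share, and of the MHC II and CADO48A gates, in the lower level of the 200 genes was not tested.

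The rule compared lineages in healthy dogs, and the next comparison asked how the same genes behaved between C MONOs and C PMNs, which it did not use. In CPM, which is scaled to the library total alone, the C MONO mean was at least 20 times the C PMN mean in 189 of the 200 genes. In C PMNs the summed level was 815 ± 423 CPM (SD, n = 10), with a lowest library of 289, a median of 699.6 and a highest of 1643 CPM, in C PMN 4. This was 1.09% of the C MONO mean. In edgeR, 199 of the 200 genes passed the filter and 193 of them rose in C MONOs, against 34.1% of the 11261 genes tested. Only 75 of the 200 would have passed the filter through C PMN libraries alone, and 72 of these were called. The others were tested because of their level in C MONOs, so the count is a description. Every C MONO library was over every C PMN library in 189 genes, against 34.5% of all genes tested. The median log2 fold change was 6.20, with quartiles of 4.88 and 7.25, against 0.03 over all genes tested.

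ENSCAFG00000011177, of rank 38, had the smallest adjusted p of the list in this comparison. In C MONOs the lowest library was at 356 CPM, the median at 438 and the highest at 579 CPM, and in C PMNs they were at 0.946, 9.74 and 13.8 CPM. The log2 fold change was 4.71 (SE 0.25, adjusted p = 7.19e-11 from edgeR), and C PMN 7, the library of lowest depth, was the lowest. It stayed as high in M-MDSCs, at 529, 488, 400, 447 and 563 CPM, a log2 fold change of 0.14 against C MONOs (SE 0.13, adjusted p = 0.676 from edgeR). ENSCAFG00000009516, of rank 46, was at 441, 512 and 557 CPM in C MONOs (lowest, median, highest) and at 1.42, 13.01 and 24.2 CPM in C PMNs. The log2 fold change was 4.40 (SE 0.27, adjusted p = 4.04e-10 from edgeR). In M-MDSC 1 to 5 it was at 455, 549.7, 478, 561 and 393 CPM, a log2 fold change of 0.00271 against C MONOs (SE 0.12, adjusted p = 0.997 from edgeR). Both genes were held at one level by C MONOs and M-MDSCs, whose ranges overlapped fully or nearly so, and no C PMN library came near them. Over 28 alternatives each, their calls in C MONOs against C PMNs were kept. In PMN-MDSCs they were at 10.9 ± 7.15 and 11.5 ± 10.2 CPM (SD, n = 9), and in H PMNs at 13.1 ± 3.71 and 7.21 ± 2.03 CPM (SD, n = 5), against 8.75 ± 4.12 and 12.6 ± 7.66 CPM in C PMNs (SD, n = 10). The libraries of these 3 populations overlapped in both genes, and their differences were not tested.

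**Figure D3:**
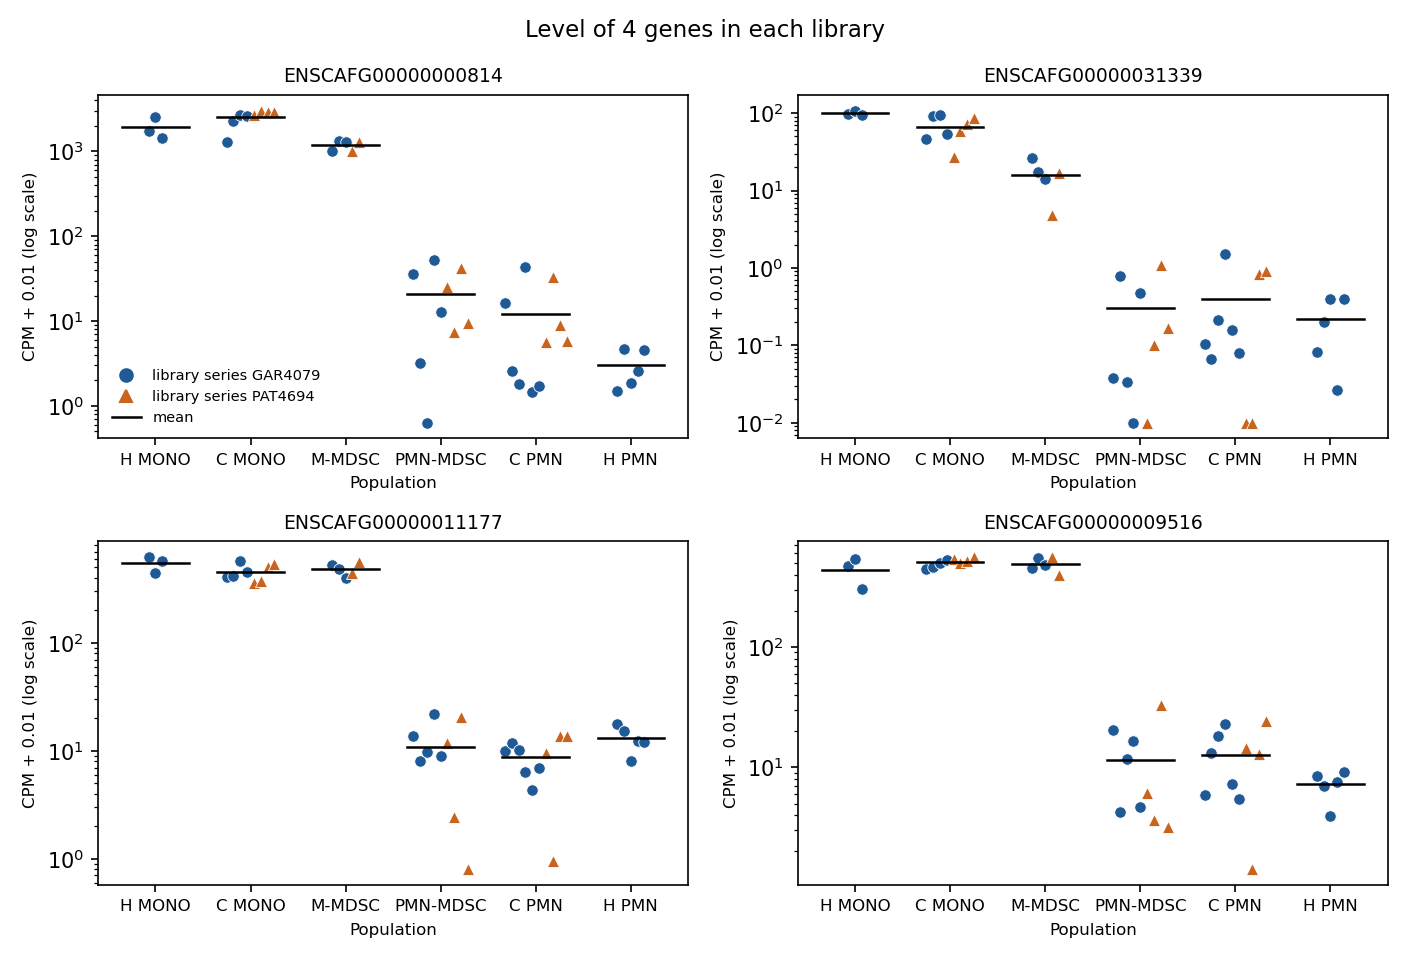
CPM of 4 genes in each library of the 6 populations, drawn as CPM + 0.01 on log scales, with circles for library series GAR4079, triangles for series PAT4694 and bars for the mean. In the upper panels the M-MDSC mean lies under the C MONO mean (log2 fold changes of -1.04 and -2.02), with C MONO 1 among the M-MDSC libraries in the panel of ENSCAFG00000000814, and in the lower panels both populations lie together (0.14 and 0.00271).

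Of the 7 genes without a call between C MONOs and C PMNs, 6 were tested and 1, of rank 192, did not pass the filter. In several of the 6 a few C PMN libraries were far above the others. At rank 12 the C PMN libraries were between 1.57 and 287 CPM with a median of 3.45 CPM, and the highest was C PMN 7. The same gene reached 548 CPM in PMN-MDSC 9, the other library of low depth, against 3.40 to 74.7 CPM in the other PMN-MDSC libraries. At rank 188 these libraries were again the highest, at 32.4 and 56.5 CPM, with medians of 0.735 CPM in C PMNs and 2.74 CPM in PMN-MDSCs. At rank 73 it was C PMN 4, at 48.8 CPM against a median of 0.434 CPM. At rank 49 the C PMN libraries were spread from 1.10 to 259 CPM with a median of 13.1 CPM, although H PMNs were between 1.41 and 3.84 CPM. The gene of rank 192 was uneven among monocytes themselves, at 146, 17.0 and 0.962 CPM in the H MONO libraries and between 0 and 87.6 CPM in C MONOs. All 7 were singled out for the missing call.

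Between M-MDSCs and C PMNs, which share the C PMN libraries with the comparison above, 197 of the 200 genes passed the filter and 188 rose in M-MDSCs, against 24.8% of the 11438 genes tested. Here 129 would have passed through C PMN libraries alone, 120 of them called, and the others were tested because of their level in M-MDSCs, so this count is a description too. Every M-MDSC library was over every C PMN library in 188 genes, against 28.4% of all genes tested. The median log2 fold change was 5.64, against -0.01 over all genes tested. ENSCAFG00000011177 again had the smallest adjusted p, with a log2 fold change of 4.88 (SE 0.29, adjusted p = 2.38e-08 from edgeR) and no overlap between the libraries. Within series PAT4694, with 2 M-MDSC libraries, 88 genes of the list and 176 of all 11399 genes tested were called higher, against 190 of the list and 3208 of 11795 within series GAR4079. The median log2 fold change of the list was 5.36 within series PAT4694 and 5.96 within series GAR4079, so the series differed more in calls than in size.

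The scaling mattered for the lineage comparisons. With library size alone, the median over every gene tested was 1.08 in place of 0.03 (log2) between C MONOs and C PMNs, and 0.97 in place of -0.01 between M-MDSCs and C PMNs. The share of called genes that were higher in the monocytic population moved with it, from 51.9% to 79.6% and from 54.2% to 85.0%. Over the 200 genes the medians moved to 7.30 and 6.68, and no gene of the list was called lower in the monocytic population. CPM is likewise scaled to the library total alone. The ratios, shares and overlaps given in CPM between these populations therefore carry the same shift.

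The name given to these genes, as not gained by PMN-MDSCs, holds only relative to monocytes. PMN-MDSCs were used to choose the genes, so their levels are described with no test. The summed level in PMN-MDSCs was 1455 ± 759 CPM (SD, n = 9), or 1.95% of the C MONO mean, and the median gene had a PMN-MDSC median of 1.03% of its H MONO mean. In 98 genes this share was under 1%, and in 6 the PMN-MDSC median was 0. Set beside C PMNs, however, the PMN-MDSC sum was 1.79 times as large. The PMN-MDSC median was over the C PMN median in 163 of the 200 genes (81.5%), against 64.6% of the 5287 genes. The ratio of the PMN-MDSC to the C PMN mean had a median of 2.38 over the 200 genes and of 4.63 over the 252 genes above the PMN-MDSC limit, which that limit itself sets apart. Since 64.6% of the 5287 genes also had the higher median in PMN-MDSCs, an excess over C PMNs was not particular to the 200 genes. Within series GAR4079 the PMN-MDSC median was over the C PMN median in 180 genes (90%), against 65.7% of the 5287 genes. Within series PAT4694 it was the higher one in 132 genes (66%), against 58.5% of the 5287. At least 1 CPM was reached by the medians of 130 genes in PMN-MDSCs and 65 in C PMNs.

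Relative to the mean, this low level varied more between PMN-MDSC libraries than the high level varied between monocyte libraries. The summed levels were 2714, 1276, 528, 2647, 1137, 1138, 928, 1691 and 1039 CPM in PMN-MDSC 1 to 9, and 569, 614, 398, 511 and 713 CPM in H PMN 1 to 5. PMN-MDSC 1 and PMN-MDSC 4 were the highest and PMN-MDSC 3 the lowest, and the PMN-MDSC and C PMN libraries overlapped between 528 and 1643 CPM. PMN-MDSC 4 was the highest PMN-MDSC library for 74 of the 200 genes and PMN-MDSC 1 for 41. In 99 genes at least 1 PMN-MDSC library reached 5% of the H MONO mean, with 47 genes each in PMN-MDSC 1 and PMN-MDSC 4, 37 in PMN-MDSC 2 and 3 in PMN-MDSC 3. For PMN-MDSCs these counts were not made over the 5287 genes, so whether they are particular to the list is not known. Among C PMNs, C PMN 4 was the highest library for 99 genes (49.5%), against 16.1% of the 5287 genes. The PMN-MDSC sum was 2.35 times that of C PMNs within series GAR4079 and 1.22 times within series PAT4694. The median over the 200 genes of the coefficient of variation was 102% in PMN-MDSCs, 123% in C PMNs and 68.9% in H PMNs, against 32.9% in C MONOs, 38.4% in M-MDSCs and 23.0% in H MONOs. The median gene had a mean of 2.45 CPM in PMN-MDSCs, 0.976 in C PMNs and 0.717 in H PMNs, against 116 CPM in C MONOs. Other genes at such low levels were not examined for their variation. The gene of rank 1 was at 198 CPM in PMN-MDSC 4, 151 CPM in PMN-MDSC 1 and 5.45 CPM in PMN-MDSC 3.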

How the data were processed

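Gene expression of sorted blood cells was measured by RNA-Seq after low-input (Smart-seq2) library preparation, with 75 bp read pairs. Adapters were removed by the authors with skewer, read pairs were placed on CanFam3.1 and the ERCC spike-ins by HISAT2, and Picard 1.92 marked duplicates; their removal is not stated. The deposited counts are uniquely mapped exonic reads of Ensembl genes from featureCounts (Subread 1.5.0), without normalization. The deposited CPM values are those counts scaled to the sum of gene and spike-in counts in each library, and the deposited TPM values were made by the authors with a gene length that is not stated. The 92 spike-ins were left out of the tests and lists, and a deposited copy of the CPM table was not used.

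The members and lists were chosen with earlier results of these data known. CPM values chose the members, and counts were tested with edgeR 4.0.16 in R 4.3.3 (quasi-likelihood test, TMM, filterByExpr, the libraries of the populations compared). Adjustment of p-values (Benjamini-Hochberg) covered all genes tested, and genes were called at an FDR of at most 0.05. The alternatives were DESeq2's size factors, library size alone, other filters, DESeq2 1.42.0, limma 3.58.1 (voom with quality weights), an FDR of 0.01, the library series, left-out libraries and other forms of the rule. The alternatives for summed CPM were chosen after seeing the data. Levels were computed with numpy 2.4.6 and pandas 2.3.3 in Python 3.11.15 and drawn with matplotlib 3.10.9. The edgeR script was tested on simulated data with 200 genes changed 4-fold. It recovered 67.5% of them for M-MDSCs against C MONOs, 68% for C MONOs against C PMNs and 32.5% for M-MDSCs against C PMNs. Unchanged genes called were 4, 1 and 0 in the same order. In every population, each pair of libraries differed by more than sampling noise, with a chi-square of at least 96.7 per degree of freedom. Depth was 4229857 to 60473238 counts on genes. Reads are not molecules, so sampling noise covers counting error only.

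By the rule for named genes, without symbols at most 2 IDs of each direction per comparison are named, by smallest adjusted p. Of the 24580 IDs, 0 matched the RefSeq table of UU_Cfam_GSD_1.0. No gene sequences were used.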

Additional observations from a re-analysis of the deposited data

Results flagged for a closer look

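In each population of 4 to 10 libraries, the gap of the highest or lowest library to its neighbour was compared with the range of the population, for the summed members, the summed neutrophil-restricted genes, the 5 called members and the 2 members named between C MONOs and C PMNs. Of 45 such groups 5 had a library that stood apart. The limits used flag about 1 in 20 groups by chance when values are normally distributed. CPM was used without a log transform and the groups shared libraries, so the 5 cannot be set against that rate. The neutrophil-restricted genes summed to 13970.4 CPM in PMN-MDSC 9, against 38743 to 62593 CPM in the other PMN-MDSCs, and to 9059 CPM in C PMN 7, against 37735 to 57598 CPM in the other C PMNs. These are the libraries of lowest depth. ENSCAFG00000000814 was at 1304 CPM in C MONO 1, against 2297 to 3033 CPM in the other C MONOs. The member of rank 5 was at 94.1 CPM in PMN-MDSC 4, against 1.78 to 42.4 CPM in the other PMN-MDSCs. The member of rank 164 was at 0.864 CPM in C PMN 4, against 0 to 0.413 CPM in the other C PMNs. C PMN 4 and PMN-MDSC 4 also had high sums over all members. The causes were not tested.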

How the results depend on the processing

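The median log2 fold change of the members stayed negative in M-MDSCs against C MONOs, between -0.47 and -0.30 over 22 alternatives. It stayed positive in C MONOs against C PMNs (5.96 to 7.30, the highest with library size alone) and in M-MDSCs against C PMNs (5.36 to 6.86, the highest with limma voom). With library size alone the share of called genes that were higher was 79.6% in place of 51.9% and 85.0% in place of 54.2%, while the median of all genes was 1.08 in place of 0.03 and 0.97 in place of -0.01.

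The number of members called in M-MDSCs against C MONOs was 5. It was 0 at an FDR of 0.01, 27 with DESeq2's Wald test, 13 with limma voom, 0 in series GAR4079 alone and 2 in series PAT4694 alone. Leaving out each library in turn gave 1 to 19. Fewer libraries were fitted in each series, and otherwise the cause was not tested. With at least 10 counts in every library, which leaves 31 members to test, 31 members were called in C MONOs against C PMNs and 30 in M-MDSCs against C PMNs, in place of 193 and 188. In series PAT4694 alone the latter was 88. Leaving out each library gave 192 to 196 and 186 to 192.

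The rule was passed by 294 genes with the mean of PMN-MDSCs in place of the median, 317 without the library of low depth, 431 with a PMN-MDSC limit of 0.1, 360 with a 10-fold limit against H PMNs and 256 with TPM, in place of 328. The 200 of highest level then shared 184, 196, 161, 188 and 162 genes with the members. The ratios of summed CPM, whose alternatives were chosen after seeing the data, were 0.682 to 0.794 for M-MDSCs over C MONOs and 1.22 to 2.35 for PMN-MDSCs over C PMNs. No paired analysis was possible because the labels give no dog for a library.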
